A study of Homo sapiens with 4 samples.

Results

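H/ACA box snoRNAs and the small RNAs of the Cajal body were examined in RNA-seq of untreated HaCaT cells, an immortalised human keratinocyte line that was grown in Dulbecco's modified Eagle medium with fetal bovine serum. The members were all rows of the gene tables whose symbol begins with SNORA (133 rows) or SCARNA (28 rows), which makes 161 of 44591 rows. The study sequenced 4 replicates of 1 condition, described in its text as biological repeats of a single cell line, to compare the levels of the human sirtuins. No treated or control group exists here, so levels are compared between replicates as a description and no test between groups was run. Libraries 1 to 4 held 73082279, 17056035, 19745170 and 19083836 counts. The keratinocyte genes KRT5, KRT14, KRT17, KRT6A and TP63 summed to 8762 to 11750 CPM (counts divided by the total count of the library, times 1000000), while the summed level of 5 fibroblast genes was 6.02 to 21.5 CPM, that of 3 immune genes 2.04 to 6.29 CPM, that of the endothelial genes PECAM1 and VWF 0 to 6.94 CPM and that of 3 melanocyte genes 1.37 to 2.81 CPM. PECAM1 and TYR had no count in any library, and PTPRC had 3 counts in replicate 1 and none elsewhere.

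H/ACA RNAs are short, stable noncoding RNAs of the nucleus that fold into hairpins, carry the conserved trinucleotide ACA close to their 3′ end and pair with a target RNA to direct the conversion of a chosen uridine to pseudouridine. The reaction is carried out by dyskerin (DKC1), which works in a complex with NHP2, NOP10 and GAR1. SNORA RNAs act mostly on ribosomal RNA in the nucleolus. The scaRNAs (SCARNA) reside in Cajal bodies and act on the small nuclear RNAs of the spliceosome, and the group includes H/ACA RNAs, C/D RNAs, which guide 2′-O-methylation, and RNAs with both kinds of domain. Most of these RNAs are not transcribed on their own but are cut out of the introns of host genes.

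The sequences of the members on which the results turn are shown first, in the order of the results, as annotated in GENCODE release 29 (GRCh38), which held 131 of the 161 members under the same symbol. Capitals mark the ACA trinucleotide within the last 8 bases, and the first 4 RNAs are the SNORA members with the highest mean level. The annotated SNORA73B has 204 bases against a gene length of 158 bases in the tables, so that its level per kilobase depends on the gene model.
SNORA73B, chr1:28508559-28508762, plus strand: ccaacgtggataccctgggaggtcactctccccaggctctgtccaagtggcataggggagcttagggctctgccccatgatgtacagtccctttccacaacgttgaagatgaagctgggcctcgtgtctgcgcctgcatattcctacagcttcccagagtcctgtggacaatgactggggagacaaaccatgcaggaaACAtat
SNORA73A, chr1:28507366-28507571, plus strand: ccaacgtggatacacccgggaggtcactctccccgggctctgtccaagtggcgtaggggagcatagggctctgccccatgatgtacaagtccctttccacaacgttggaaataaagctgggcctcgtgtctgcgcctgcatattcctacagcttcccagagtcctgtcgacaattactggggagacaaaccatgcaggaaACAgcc
SNORA63, chr3:186787300-186787431, plus strand: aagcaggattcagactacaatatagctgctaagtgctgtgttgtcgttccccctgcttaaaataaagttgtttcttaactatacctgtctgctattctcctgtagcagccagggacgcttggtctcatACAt
SNORA23, chr11:9428773-9428954, plus strand: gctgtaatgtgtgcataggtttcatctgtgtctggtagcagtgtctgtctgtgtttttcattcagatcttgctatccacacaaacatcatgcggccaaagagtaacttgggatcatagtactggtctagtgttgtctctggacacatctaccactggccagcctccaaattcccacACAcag

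SCARNA21 is shown as the H/ACA scaRNA with the most counts, and SNORA40 as the SNORA member that led in the shallower libraries. The annotated SNORA40 has no ACA in its last 8 bases and is printed without capitals.
SCARNA21, chr17:7906122-7906260, plus strand: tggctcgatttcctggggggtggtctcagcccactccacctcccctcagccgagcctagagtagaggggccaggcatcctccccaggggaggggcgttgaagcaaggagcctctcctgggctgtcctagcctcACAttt
SNORA40, chr11:93735111-93735236, minus strand: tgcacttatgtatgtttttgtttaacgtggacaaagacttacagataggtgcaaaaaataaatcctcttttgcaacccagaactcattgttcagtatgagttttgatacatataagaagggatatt

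An ACA followed by exactly 3 bases at the 3′ end was found in 83 of 109 matched SNORA sequences (76.1%) and in 11 of 14 H/ACA scaRNAs (78.6%). The same position held ACA in 4 of 288 SNORD transcripts (1.39%), the C/D box snoRNAs of the nucleolus. None of the 3 matched C/D scaRNAs and none of the 4 RNAs of mixed type ended in this way. The box is a property of the annotated sequence and was read on the strand of the transcript only.

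SNORA RNAs took a far larger share of replicate 1 than of the other libraries. Their counts summed to 164155, 912, 771 and 564 in the 4 libraries, in replicate order. In relation to depth this was 2246 CPM (95% Clopper-Pearson interval 2235 to 2257), 53.5 CPM (50.1 to 57.1), 39.0 CPM (36.3 to 41.9) and 29.6 CPM (27.2 to 32.1). These intervals describe counting error alone, and no molecular identifiers are described that would separate PCR copies from molecules. Replicate 1 was thus 42.0 times the highest of the other libraries, which lay within a factor of 1.81 of each other. The mean of the 4 replicates, 592 ± 1103 CPM (SD, n = 4), has an SD above the mean, and without replicate 1 it was 40.7 ± 12.0 CPM (SD, n = 3).

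The scaRNAs were separated more widely. Their counts were 144363, 273, 131 and 48 in replicates 1 to 4, or 1975, 16.0, 6.63 and 2.52 CPM. Replicate 1 stood 123 times above replicate 2, and the other 3 libraries spanned a factor of 6.36. The mean was 500 ± 983 CPM (SD, n = 4) with replicate 1 and 8.39 ± 6.91 CPM (SD, n = 3) without it. SNORD RNAs, 298 rows with a median length of 82 bases, had 2005, 63.3, 42.0 and 28.4 CPM, so a level many times higher in replicate 1 was also seen in RNAs without an ACA box. Protein-coding genes took 76.1% of all counts in replicate 1, against 95.3% to 96.4% in the other libraries. RNA selection and library construction are not given for each library in the sources used here, and their part in these differences was not tested.

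**Figure D1:**
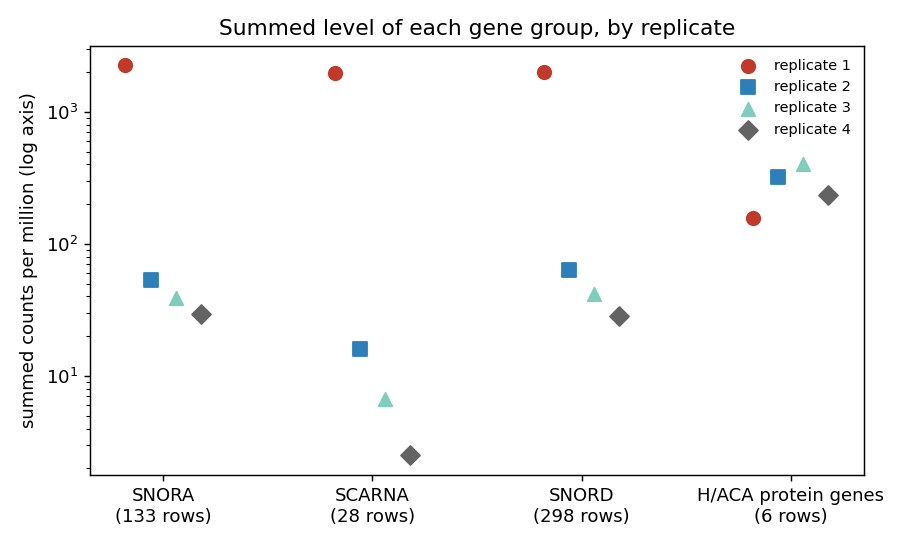
Summed level of each gene group in CPM (log axis), with 1 point per replicate. Replicate 1 lies above the other replicates for SNORA, SCARNA and SNORD RNAs (2246, 1975 and 2005 CPM) and below them for the 6 genes of H/ACA proteins (157 CPM).

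The genes of the H/ACA proteins did not share this order, and their sum was lowest in replicate 1. DKC1, NHP2, NOP10, GAR1 and the assembly factors NAF1 and SHQ1 summed to 157, 319, 400 and 235 CPM (278 ± 105, SD, n = 4). DKC1, the pseudouridine synthase itself, was measured at 45.7, 146, 147 and 89.8 CPM. GAR1 was measured at 2.94, 8.27, 17.7 and 10.6 CPM, NHP2 at 33.2, 81.6, 118 and 69.6 CPM and NAF1 at 2.89, 13.8, 14.7 and 9.80 CPM. For these 4 genes replicate 1 was the lowest library. NOP10, at 55.7, 58.0, 89.3 and 43.0 CPM, had replicate 1 within the range of the others, and SHQ1 was highest in replicate 1 with 17.0 CPM against 11.1 to 13.6 CPM. Genes of the Cajal body (COIL, WRAP53, NOLC1, TGS1 and SMN1) summed to 154, 259, 257 and 321 CPM. Of these genes NOLC1 differed most between libraries, with 61.3, 160, 142 and 228 CPM. WRAP53 and SMN1 were also lowest in replicate 1, and COIL lay within the range of the others. TGS1 was highest in replicate 1, with 41.4 CPM against 24.5 to 30.3 CPM. Genes that act on RNA 3′ ends (PARN, PAPD5, EXOSC10 and DIS3) summed to 263, 239, 229 and 237 CPM. TERC, the telomerase RNA, which also carries an H/ACA domain but is no member by name, had 31925, 50, 9 and 2 counts in replicates 1 to 4. In relation to depth this was 437, 2.93, 0.456 and 0.105 CPM. TERT, the protein with which TERC forms telomerase, had 42, 130, 94 and 40 counts, or 0.575, 7.62, 4.76 and 2.10 CPM.

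Detection followed the same order of libraries. More than 3 counts, the limit used here for detection, were present for 124 of 161 members in the first library (77.0%) and for 62 (38.5%), 49 (30.4%) and 40 (24.8%) in replicates 2, 3 and 4. The limit corresponds to 0.0410 CPM in replicate 1 and to 0.152 to 0.176 CPM in the others. After the counts of replicate 1 had been thinned at random to the total of replicate 2, an alternative added after seeing the data, 108 members still had more than 3 counts there. In all 4 libraries 30 members were detected, which is 18.6% of the members against 34.7% of all gene rows. More than 3 counts in at least 1 library were reached by 125 of the 161 members and by 23712 of all 44591 gene rows. For 52 members detection was limited to replicate 1. Another 36 members never exceeded 3 counts, 25 of them, all SNORA, with no count in any library. By the limit of 3 counts such members could still lie at up to 0.0410 CPM in replicate 1. SNORA36A and SNORA56, which both lie in DKC1, had no count in any library although their host gene had 1714 to 3341 counts. The annotated SNORA36A is 97.0% identical with SNORA36C, which had 1, 1, 0 and 0 counts, and SNORA56 lies inside an annotated exon of DKC1. Their lack of counts can thus depend on how reads were assigned, which was not tested.

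Of the 125 members with more than 3 counts in at least 1 library, 114 (91.2%) had their highest CPM in replicate 1, against 33.8% of the 23712 gene rows that met the same condition. Replicate 2 was highest for 8 members, replicate 4 for 3 and replicate 3 for 0. Replicate 1 was at least 10 times the highest other library for 60 members (48%), against 5.68% of the gene rows. However, 52 of the 125 members (41.6%) had met the condition in replicate 1 alone and were thereby nearly bound to be highest there, against 12.8% of the gene rows. Among the 73 members with more than 3 counts in at least 1 of replicates 2 to 4, a condition added after seeing the data, replicate 1 was highest for 63 (86.3%), against 26.8% of 20680 gene rows, and at least 10 times the highest other library for 24 (32.9%), against 0.88% of the gene rows. The median over members of log2(CPM + 1) in replicate 1 minus the mean of the other replicates was 1.19, beside -0.09 over all gene rows, and it was 1.75 over the 73 members, beside -0.18 over the gene rows of the same condition. Taken in the same way for replicates 2, 3 and 4, the difference was -0.30, -0.47 and -0.50. By class, the median difference of replicate 1 was 1.15 for SNORA, 1.91 for SCARNA and 0.38 for SNORD RNAs.

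A pair of closely related RNAs gave most SNORA counts of replicate 1. SNORA73A and SNORA73B, also known as U17 or E1, take part in the processing of the precursor of 18S rRNA rather than in the modification of a known uridine. Both lie in SNHG3, a noncoding host gene on chromosome 1, and their annotated sequences were 93.2% identical. SNORA73B had 61016, 25, 27 and 10 counts in replicates 1 to 4, or 835, 1.47, 1.37 and 0.524 CPM. SNORA73A had 48230, 46, 28 and 18 counts, or 660, 2.70, 1.42 and 0.943 CPM. Replicate 1 was 570 and 245 times the highest other library, respectively. With reads shared between such similar copies the split between the pair is uncertain, while their sum of 109246, 71, 55 and 28 counts is less so. SNHG3 itself had 29.8, 37.3, 27.0 and 27.2 CPM and was thus at a like level in all 4 libraries. The pair also lies within the longer row of the protein-coding gene RCC1 on the same strand. RCC1 had 48.5, 176, 208 and 123 CPM and was lowest in replicate 1.

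Without this pair the remaining 131 SNORA rows summed to 751, 49.3, 36.3 and 28.1 CPM, and replicate 1 stood 15.2 times above replicate 2. SNORA63, within the translation factor gene EIF4A2, had 9999, 2, 7 and 1 counts. SNORA23, in the importin gene IPO7, had 9784, 3, 4 and 0 counts. For both, the 3 shallower libraries were near the limit of detection and replicate 1 reached 137 and 134 CPM. SNORA57, in METTL12, was found in every library with 3473, 33, 40 and 16 counts, or 47.5, 1.93, 2.03 and 0.838 CPM.

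**Figure D2:**
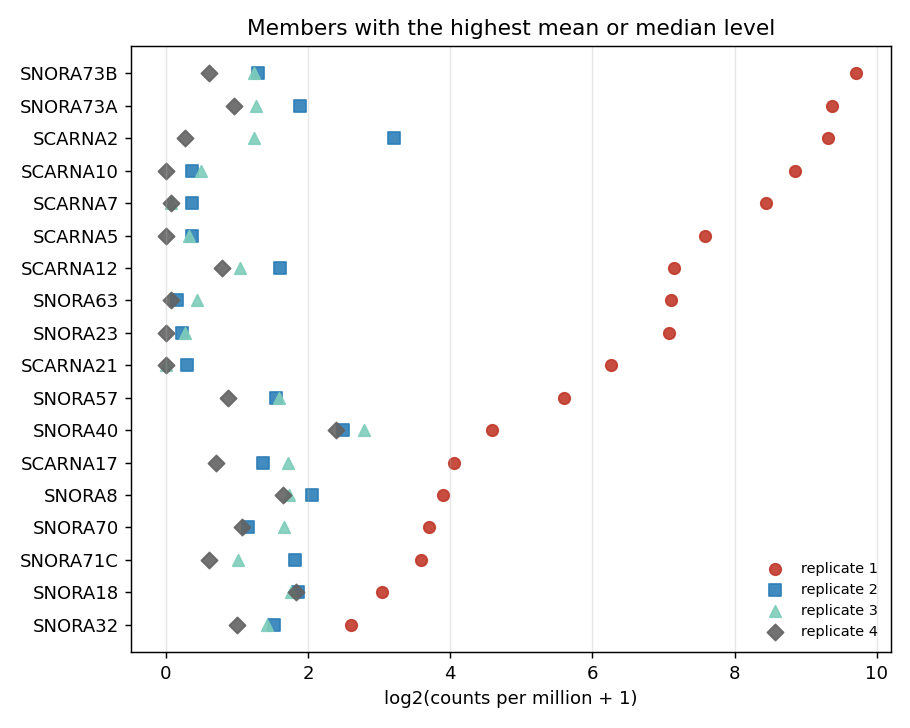
Level of the members with the highest mean or median CPM, on the scale log2(CPM + 1), with 1 point per replicate. Replicate 1 is the highest library for each of these members, and its distance to the others is small for SNORA32 and SNORA18, for example, and wide for SNORA73B and SCARNA10.

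The scaRNAs with the most counts in replicate 1 were of the C/D and mixed types. The 5 C/D scaRNAs summed to 1014, 10.9, 4.46 and 1.10 CPM and the 4 of mixed type to 845, 2.70, 1.72 and 0.734 CPM. The 14 H/ACA scaRNAs summed to 96.6, 1.29, 0.456 and 0.472 CPM, and 5 scaRNAs that were not assigned to a type to 19.8, 1.11, 0 and 0.210 CPM. Each type thus had its highest sum in replicate 1.

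SCARNA2, a C/D RNA that guides methylation of U2 snRNA, had 46653, 141, 27 and 4 counts, or 638, 8.27, 1.37 and 0.210 CPM. It differed strongly among the shallower libraries too, and gave 51.6% of the scaRNA counts of replicate 2. No gene row of the tables contains SCARNA2. SCARNA10 (U85), which carries both kinds of domain and acts on U5 snRNA, had 33600, 5, 8 and 0 counts. SCARNA7, of the C/D type, had 25213, 5, 1 and 1 counts. SCARNA5 and SCARNA6 lie in the same host gene, ATG16L1, and had 13898, 5, 5 and 0 counts and 3958, 1, 0 and 0 counts. Outside replicate 1 these 4 RNAs had at most 8 counts in any library.

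SCARNA12, a mixed RNA in PHB2, and SCARNA17, a C/D RNA in SNHG22, were detected in every library. SCARNA12 had 10299, 35, 21 and 14 counts, or 141, 2.05, 1.06 and 0.734 CPM. SCARNA17 had 1139, 27, 45 and 12 counts, or 15.6, 1.58, 2.28 and 0.629 CPM. Its gene length in the tables is 421 bases, while the RNA annotated in GENCODE has 144 bases. SCARNA9 had 865, 11, 11 and 4 counts and its relative SCARNA9L, on the X chromosome, 229, 2, 4 and 0 counts. With SCARNA2 this makes 4 scaRNAs with more than 3 counts in all libraries, 3 of them C/D RNAs and SCARNA12 a mixed RNA.

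Among the H/ACA scaRNAs, SCARNA21 in CHD3 led with 5547, 4, 0 and 0 counts, or 75.9 CPM in replicate 1. SCARNA16 had 714, 1, 0 and 3 counts, SCARNA1 353, 2, 0 and 0 counts, and SCARNA22 111, 2, 6 and 2 counts. The 7 further H/ACA scaRNAs above the limit had 21 to 76 counts in replicate 1, from SCARNA8 to SCARNA4, and at most 4 counts in any other library. SCARNA11 and SCARNA23 did not exceed 2 counts. SCARNA13 was an exception with 0, 2, 1 and 2 counts, although SNHG10, in which it lies, had 473, 114, 71 and 99 counts. Of the unassigned scaRNAs, SCARNA28 in TRRAP had 1193 counts in replicate 1 and none in the other libraries, whose limit of 3 counts lies at 0.152 to 0.176 CPM. Another short RNA row, MIR3609, overlaps SCARNA28 on the same strand, and the part of this overlap in its counts was not tested.

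The rank order of the members changed between libraries as well as their level. In replicate 1 SNORA73B and SNORA73A held 66.6% of the SNORA counts, and 15 members sufficed for 90%. In replicates 2 to 4 SNORA40 led with 8.66%, 15.0% and 14.4% of the SNORA counts, and 37 to 44 members were needed for 90%. Across the 125 members the Spearman coefficient of CPM was 0.405, 0.434 and 0.247 between replicate 1 and the others and 0.654 to 0.710 among replicates 2 to 4. However, 52 of the 125 had been detected in replicate 1 alone. Across the 30 members detected in all 4 libraries it was 0.578, 0.529 and 0.175 between replicate 1 and the others. Among replicates 2 to 4 it was 0.429 to 0.669 there, so the ranges overlapped. These coefficients are a description across genes, which are not independent replicates, and most members had few counts in the shallower libraries.

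Longer RNAs held more of the counts in replicate 1. The 19 members of 200 to 421 bases took 60.7% of all member counts there, and 25.6%, 18.0% and 10.5% in replicates 2 to 4. With the annotated lengths of GENCODE in place of those of the tables, by which SNORA73B becomes a long and SCARNA17 a short member, 17 members of at least 200 bases took 80.0% in replicate 1 and 25.3%, 15.6% and 10.1% in the others. The 86 members of 130 to 139 bases, the usual size of an RNA with a pair of hairpins, took 12.4% in replicate 1 and 51.9% to 58.0% in the others. The counts of the long members came mostly from scaRNAs and the SNORA73 pair, so length and type cannot be told apart here.

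**Figure D3:**
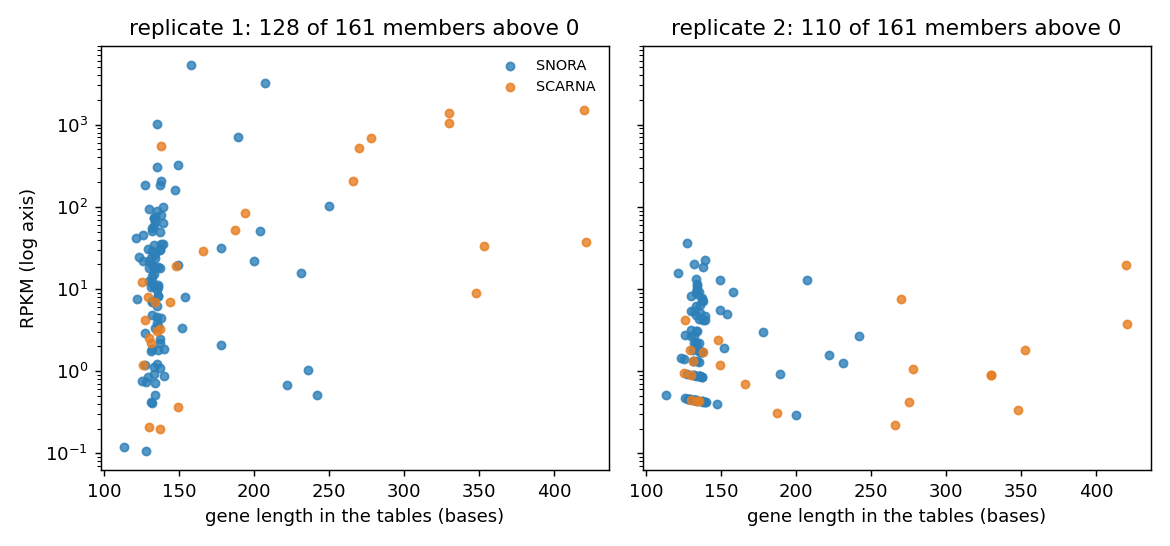
Level as RPKM (counts per kilobase of gene length and per 1000000 counts, log axis) against the gene length in the tables, in bases, for members with a count above 0 in replicate 1 (128 of 161) and replicate 2 (110 of 161). SNORA members lie mostly near the median of 134 bases, and in replicate 1 the scaRNAs longer than 250 bases reach levels that they do not reach in replicate 2. The lowest bands of replicate 2 are members with 1 or 2 counts.

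SNORA40, SNORA8 and SNORA18, in the top 5 SNORA members by counts in each of replicates 2 to 4, lie side by side. Other members of the top 5, such as SNORA70 and SNORA57 in replicate 3, lie elsewhere. SNORA25, SNORA32, SNORA1, SNORA8, SNORA18 and SNORA40 occupy chr11:93463679-93468402 in the tables (minus strand, positions as in the tables, whose build is hg19 by the processing notes of the submitters), next to the row of TAF1D, a gene for a subunit of the RNA polymerase I factor SL1, at 93469095 to 93474703. In GENCODE release 29 all 6 lie inside exons of TAF1D transcripts, at all but SNORA25 including transcripts of the retained-intron type. These 6 were put together after their values had been seen. They summed to 3960, 248, 268 and 215 counts, which is 2.41% of the SNORA counts in replicate 1 and 27.2%, 34.8% and 38.1% in replicates 2 to 4. Their level was 54.2 CPM in replicate 1 and 14.5, 13.6 and 11.3 CPM in the others, and replicate 1 was thus 3.73 to 4.81 times the others.

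SNORA40 had 1689, 79, 116 and 81 counts, or 23.1, 4.63, 5.87 and 4.24 CPM. SNORA8 had 1017, 54, 46 and 41 counts, or 13.9, 3.17, 2.33 and 2.15 CPM. SNORA18 had 528, 45, 47 and 49 counts, or 7.22, 2.64, 2.38 and 2.57 CPM. For SNORA18 the counting intervals of the 3 shallower libraries overlapped, from 1.75 to 3.53 CPM, and replicate 1 lay above them with 6.62 to 7.87 CPM. SNORA32 had 373, 32, 33 and 19 counts. The TAF1D row had 29.2, 49.2, 32.8 and 36.5 CPM, so the level of the 6 RNAs per kilobase was 3.11 times that of TAF1D in replicate 1 and 0.495 to 0.693 times in the others.

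Whether a member lies in an exon of another gene was then counted for the 131 members matched to GENCODE, a division chosen after the cluster at TAF1D had been seen. Inside an annotated exon of another gene on the same strand were 44 members, in 29 cases including an exon of a retained-intron transcript. More than 3 counts in all 4 libraries were reached by 23 of these 44 (52.3%) and by 6 of the 87 members in no such exon (6.90%). Without the 6 RNAs beside TAF1D, whose values had prompted the division, it was 17 of 38 (44.7%). The 44 members held 70.2%, 76.2% and 74.9% of the counts of matched members in replicates 2 to 4 but 41.1% in replicate 1, in which SNORA73A alone gave 48230 of their 125526 counts. With the 6 RNAs left out of both sums, the shares were 61.9%, 65.8% and 60.6% in replicates 2 to 4 and 40.4% in replicate 1. Reads of the small RNA and reads of a host transcript that keeps the intron cannot be told apart in gene counts.

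**Figure D4:**
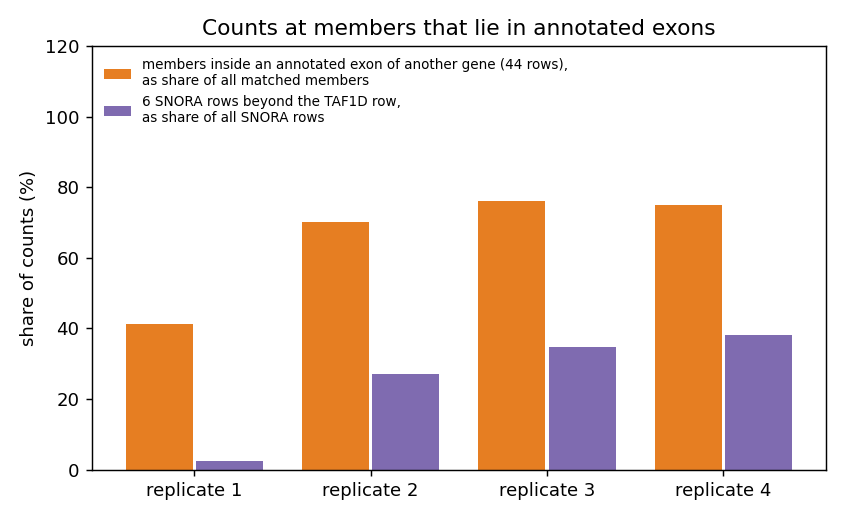
Share of counts in percent, by replicate, at the 44 members inside annotated exons (of all counts at matched members) and at the 6 SNORA rows beside TAF1D (of all SNORA counts). Both shares are lower in replicate 1 (41.1% and 2.41%) than in replicates 2 to 4.

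SNORA70, in the ribosomal protein gene RPL10, had 875, 21, 43 and 21 counts, most of the 937, 26, 45 and 22 counts of its family of 7, whose sequences were 82.2% to 90.4% identical in pairs. The 5 SNORA71 RNAs, of which 4 lie in SNHG17, summed to 3454, 89, 42 and 24 counts. SNORA71A led the family in replicate 1 with 2075 counts, and SNORA71C in replicates 2 to 4 with 43, 20 and 10 counts against 17, 12 and 3 counts of SNORA71A. The SNHG17 row itself was lowest in replicate 1, with 3.05 CPM against 10.1 to 38.1 CPM.

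Near-identical copies were counted unequally. SNORA7A, in RPL32, and SNORA7B differ at 2 of 139 positions, G26C and C114T (base of SNORA7A, position from the 5′ end, base of SNORA7B), and are shown because their counts go apart in replicate 1.
SNORA7A, chr3:12840312-12840450, minus strand: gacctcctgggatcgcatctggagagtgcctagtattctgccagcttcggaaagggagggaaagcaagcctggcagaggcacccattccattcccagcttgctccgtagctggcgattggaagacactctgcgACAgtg
SNORA7B, chr3:129397210-129397348, minus strand: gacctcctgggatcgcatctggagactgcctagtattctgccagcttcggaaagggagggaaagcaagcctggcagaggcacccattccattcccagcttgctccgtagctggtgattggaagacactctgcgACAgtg

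SNORA7A had 0, 11, 6 and 0 counts in replicates 1 to 4, and SNORA7B had 638, 10, 7 and 1 counts. SNORA7A was the only member above the detection limit elsewhere and not in replicate 1, although its host RPL32 had 31333 counts there. In GENCODE SNORA7A lies inside an exon of a protein-coding RPL32 transcript, and SNORA7B in no such exon. SNORA59A and SNORA59B are identical over 152 bases, yet all counts (37, 5, 2 and 7) were given to SNORA59A. SNORA11D and SNORA11E, also identical, had no count in any library. The assignment of reads between such copies is not stated, and these levels are uncertain.

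The other members with the lowest value of replicate 1 against the rest had few counts everywhere. SNORA92 had 9, 11, 3 and 7 counts, SCARNA27 11, 9, 0 and 4 counts, SNORA77 7, 3, 4 and 5 counts, and SNORA5B 4, 5, 0 and 3 counts. With replicate 1 about 4.28 times as deep as replicate 2, each was lower in CPM there than in replicate 2. SNORA5A, which like SNORA5B lies in TBRG4 and is 89.6% identical with it, had 261, 7, 3 and 0 counts. SNORA5C, in the same gene, had 310, 18, 7 and 7 counts.

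Members were also set against their host genes, per kilobase. The smallest gene row on the same strand that contains a member was taken as its host, and 114 of the 125 members above the limit had one. The member exceeded its host on the RPKM scale in 37 of 112 in replicate 1, in which 2 members had a host at 0, and in 3, 2 and 2 of 114 in replicates 2 to 4. The median ratio of member to host was 0.449, 0.0306, 0.0028 and 0.0030. Of the 114 members, 113 had more than 3 counts in replicate 1 and 53, 39 and 32 in replicates 2 to 4. The condition was thus met mostly through replicate 1, so the contrast with the other libraries is in part fixed by it. Many ratios of replicates 2 to 4 rest on members at or below the limit. In the 20 with a noncoding host the member was the higher in 13 in replicate 1 and in 1 in each other library, and in those with a protein-coding host in 24 of 92 in replicate 1 and 2, 1 and 1 of 94 in the others. SNORA73B was 415 times as high as SNHG3 per kilobase in replicate 1 and 0.583 times in replicate 2, and SCARNA10 was 35.9 times and 0.0151 times as high as NCAPD2.

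SNORA48 had 2970, 10, 4 and 1 counts and SNORA67 had 1819, 17, 19 and 6 counts. Their host EIF4A1 was listed at 0 in replicate 1, with 16830, 32148 and 15611 counts in the others, so no ratio exists for either RNA in replicate 1 and both are left out of the count and median above. EIF4A1 shares its span with the row of the SENP3-EIF4A1 readthrough, which had 152 counts in replicate 1 and 18319 in replicate 2. Among all gene rows, 95 had at most 3 counts in replicate 1 and at least 100 in each other library, and 63 of these (66.3%) overlapped another gene row on the same strand, against 13.5% of all 10362 rows (short RNAs left out) with at least 100 counts in replicates 2 to 4. No row stood in this way in replicate 2, 3 or 4. The part of this difference in the levels of members inside host genes was not tested.

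**Figure D5:**
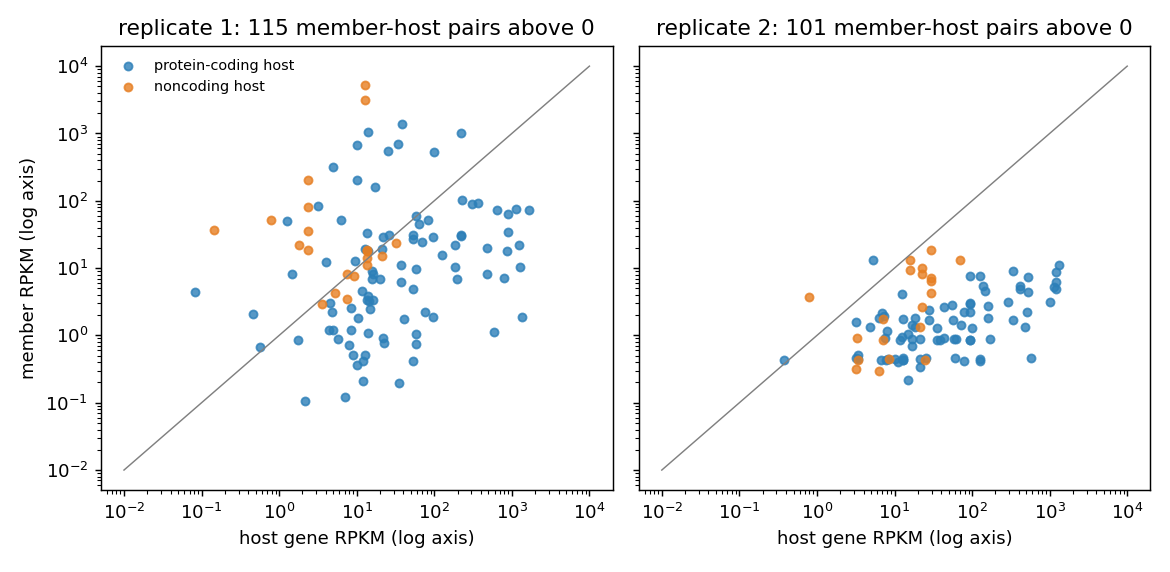
Member RPKM against host gene RPKM (log axes), for member and host pairs with both values above 0 in replicate 1 (115 pairs) and replicate 2 (101 pairs), coloured by the type of host. The line marks equal levels. Many members lie above it in replicate 1, while nearly all lie below it in replicate 2.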

How the data were processed

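RNA was extracted from untreated HaCaT cells with Trizol and treated with DNase I, and 1 library per replicate was sequenced (4 in all). The authors deposited raw counts per gene with gene lengths and positions for each replicate. Deposited RPKM values (replicates 1 and 2) and deposited TPM values (replicates 3 and 4) equal the values recomputed from the counts within a relative difference of 6.655e-07. The submitters' processing notes name hg19, HISAT2, HISAT, TopHat2 and Bowtie2. The counting program, annotation, strand setting and RNA selection are not given in the sources used here. CPM was computed from the deposited counts with the total count as library size.

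The members and gene lists were chosen with earlier results of these data known. Members were named by a rule: the 10 highest by mean CPM, the 10 highest by median CPM, the 5 highest and 5 lowest by the difference of replicate 1, scaRNAs of known type with more than 3 counts in a library, and families with lettered symbols. The members SNORA1, SNORA25, SNORA36A, SNORA48, SNORA56, SNORA67, SCARNA11, SCARNA13, SCARNA23 and SCARNA28 were named after their values were seen. All values are descriptions with n = 4 replicates of 1 condition, with no test between groups, and Dixon's critical value marked libraries that stood apart. Positions in the tables are not converted. Sequences, exons and identities were taken from GENCODE release 29. Overlaps leave out tRNA rows. TMM factors (edgeR 4.0.16) and median-of-ratios size factors (DESeq2 1.42.0) served as alternatives. Scripts were tested on simulated data. Python 3.11.15, pandas 2.3.3, SciPy 1.17.1 and R 4.3.3 were used.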

Additional observations from a re-analysis of the deposited data

Results flagged for a closer look

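In 12 of 21 sets of 4 replicates examined (the summed levels and the members named by mean or median level, on the scale log2(CPM + 1)), 1 library stood apart, with a gap to its nearest neighbour above Dixon's 95% critical value for 4 samples when divided by the whole range. Chance flags about 1 in 20 sets, but this rate does not apply to the members named by mean level, whose means rest almost wholly on replicate 1, and the sets share libraries. In all 12 the library was replicate 1, and it was the highest. The summed SNORA level had a gap of 0.865 of the range. Among SNORA members the share was 0.917 for SNORA18, 0.962 for SNORA23, 0.848 for SNORA57, 0.948 for SNORA63, 0.89 for SNORA73A and 0.924 for SNORA73B. Among scaRNAs it was 0.945 for SCARNA10, 0.872 for SCARNA12, 0.951 for both SCARNA21 and SCARNA5 and 0.964 for SCARNA7. The summed SCARNA level did not pass, since replicates 2 to 4 were themselves spread widely.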

How the results depend on the processing

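Of 54 alternatives over 7 summary values, 40 left the value within the set margin (1 SD between replicates for levels, the SD of the 3 other replicates' medians for the median difference, a factor of 1.5 for counts), 14 moved it and 0 reversed it. With an SD above the mean, this margin is wide for the RNA sums. As TPM in place of CPM the mean sums were 3644 for SNORA, 1497 for SCARNA and 474 for H/ACA protein genes. Leaving out each replicate gave 40.7 to 780 CPM for SNORA, 8.39 to 666 CPM for SCARNA and 237 to 318 CPM for the protein genes, and the lowest RNA sums are those without replicate 1. Members found in all libraries numbered 54 with any count above 0, 13 with more than 10 counts and 30 to 39 with a library left out. The count of members highest in replicate 1 was 95 (of 104 that overlapped no row other than 1 host) to 118. It was 63 of 73 with more than 3 counts required in at least 1 of replicates 2 to 4, a condition added after seeing the data. By this condition fewer members were counted and the median difference became 1.75. The median difference of 1.19 became 1.46 with protein-coding counts as library size, 1.38 with median-of-ratios factors, 1.43 with TMM, 0.69 without a filter, 1.38 with more than 10 counts in a library, and 2.84 and 1.63 with pseudocounts of 0.1 and 0.5 CPM. Leaving out replicates 2 to 4 in turn gave 1.14 to 1.23. Without replicate 1 this difference has no value. No paired analysis was possible because there is only 1 group. In replicates 2 to 4 most members had too few counts for their order to be resolved at this depth.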
